A study of Mus musculus with 15 samples.

Results

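Addition of pterosin B to cultures of mouse marrow precursors given RANKL was examined across all 41819 genes of the deposited table, as SCRP against SCR. Of these genes, 13650 had enough reads to be tested. SCRP denotes 3 libraries of C57BL/6J bone marrow monocytes cultured in M-CSF at 50 ng/ml for 2 days and then in M-CSF and RANKL, each at 50 ng/ml, for 3 days with pterosin B at 300 µM. SCR denotes 3 libraries of the same cells under the same schedule without pterosin B, and its labels name no vehicle. SC denotes 3 libraries labelled vehicle, without RANKL, given here as a level to read the others against. The time for which SC was kept is not given. These 9 libraries are part of a series of 15, whose other 6 compare cells with a Rank-Cre deletion of Sik3 (KO, floxed Sik3) with wild-type cells (WT) after 2 days of RANKL. Whether the 3 libraries of a group stem from different animals is not in the labels, and p-values thus cover the spread between these libraries only, which may be technical.

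RANKL is the cytokine that turns macrophage precursors into osteoclasts, the multinucleated cells that dissolve bone. It binds the receptor RANK, engages TRAF adaptors and AP-1 and NF-κB factors, and with calcium signals from ITAM-bearing costimulatory receptors it induces NFATc1, the main transcription factor of the lineage. NFATc1 in turn activates genes of cell fusion, of acid secretion by the vacuolar proton pump and of matrix digestion, while repressors such as IRF8 hold the programme back in precursors. Osteoclast formation also draws on new mitochondria and an expanded iron supply. Pterosin B, a natural product of bracken, has been used to inhibit signalling by SIK3, a salt-inducible kinase that phosphorylates CRTC coactivators and class IIa histone deacetylases.

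The SCRP libraries held 40338706 to 49927591 exon reads, the SCR libraries 37138648 to 49610156 and the SC libraries 40152624 to 48431715. Levels are given in CPM, exon reads scaled to a common library size with TMM factors, and n is 3 in each group. Means are given ± SD. Fold changes are given as log2 of SCRP over SCR with the standard error, and passing means an adjusted p under 0.05 (edgeR quasi-likelihood test, two-sided, Benjamini-Hochberg adjustment over the 13650 tested genes). One library stood apart in a small group of genes. SCRP replicate 3 had 18.1 CPM of Hba-a1, 1.5 CPM of Hbb-bs and 8.37 CPM of Hbb-bt, haemoglobin genes of red cells, while the other 5 SCRP and SCR libraries had at most 0.0477 CPM of any of them. Without that library 4594 genes passed, against 5156 with it. Leaving out any 1 of the other 5 libraries gave 4396 to 4767. As these are bulk samples, fewer cells of a type and less RNA per cell cannot be told apart.

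A large part of the measured transcriptome differed between SCRP and SCR, and the larger changes were mostly falls. In SCRP 2439 genes rose (17.9% of those tested) and 2717 fell (19.9%), so that 37.8% of tested genes passed in either direction. Counts of list members given below are to be read beside these shares. The share that passed differed by level, at 9.64% under 1 CPM and 55.2% at 100 CPM or more. The median log2 fold change over all tested genes was 0.0046, with quartiles at -0.24 and 0.22. A change of at least 2-fold was seen in 819 genes (6.00% of those tested), of which 182 rose (1.33%) and 637 fell (4.67%). At 8-fold or more, 10 genes rose and 129 fell. Of the 2-fold changes, 52 rises and 168 falls were in genes under 1 CPM. Among the 2289 tested genes at 100 CPM or more, 532 rose and 731 fell, and 13 of the rises and 33 of the falls reached 2-fold.

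**Figure D1:**
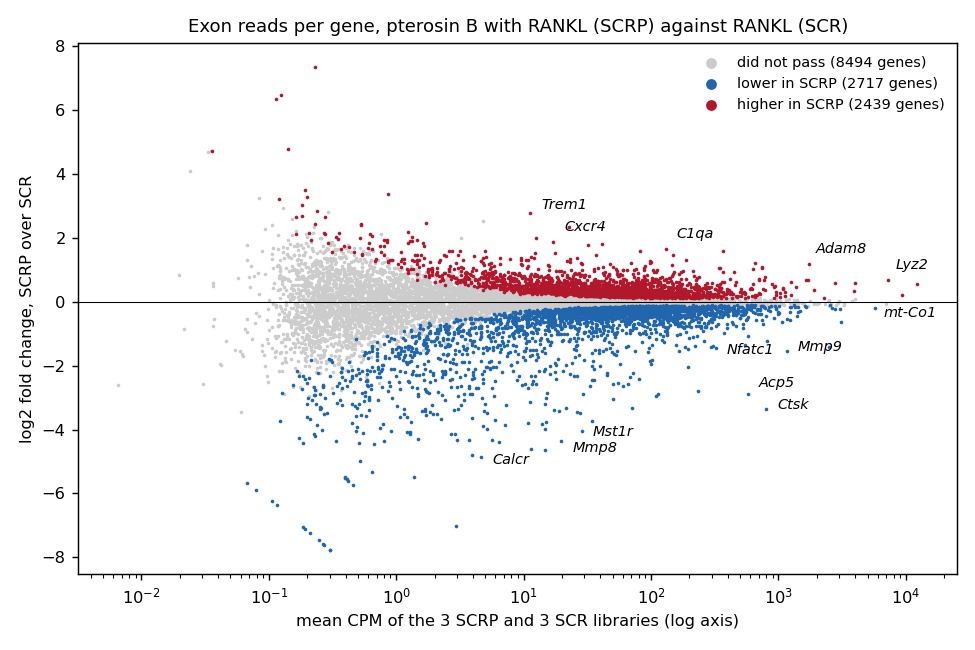
Each point is 1 of 13650 tested genes, with the mean CPM of the 3 SCRP and 3 SCR libraries on a log axis and the log2 fold change of SCRP over SCR on the vertical axis. The 2717 genes lower in SCRP (blue) reach further from 0 than the 2439 genes higher in SCRP (red) at levels above about 1 CPM.

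By absolute level, large losses of reads were seen in Gpnmb, in Ctsk and Mmp9, described with the matrix enzymes, and in genes of the cytoskeleton. Gpnmb, a glycoprotein abundant in osteoclasts and macrophages, had 1210.4, 1562 and 1307 CPM in SCRP, against 3416, 3932 and 3523 CPM in SCR. Vim, the intermediate filament vimentin, averaged 2453 ± 36.4 CPM in SCRP, against 3778 ± 117 CPM in SCR, and Actb, cytoplasmic actin, averaged 5349.7 ± 27.8 CPM in SCRP, against 6186 ± 135 CPM in SCR. Large gains were seen in genes abundant in macrophages. Lyz2, lysozyme, averaged 8981 ± 769.7 CPM in SCRP, against 5557 ± 526 CPM in SCR, and Lrp1, a scavenger receptor of macrophages, averaged 3363 ± 190.3 CPM in SCRP, against 2232 ± 98 CPM in SCR. Ftl1, the light chain of the iron store ferritin, averaged 14704 ± 859 CPM in SCRP, against 9976 ± 419 CPM in SCR, with 62% of its reads mapping uniquely. All 6 of these genes passed, and in none of them did the SCRP and SCR libraries overlap, which holds for 49.3% of all tested genes. That share is the background wherever SCRP and SCR libraries are said not to overlap, or every SCRP library to lie above or below every SCR library.

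Of the kinase axis on which pterosin B is thought to act, Sik3 itself was lower, at 52.1, 49.5 and 52.1 CPM in SCRP, against 67, 64.1 and 65.1 CPM in SCR (log2 fold change -0.35 ± 0.05, adjusted p = 5.31e-05). Sik1, a family member induced by cAMP, had 19.3, 13.5 and 14.6 CPM in SCRP, against 29.6, 24.3 and 25.5 CPM in SCR (-0.75 ± 0.12, adjusted p = 1.55e-04). Both fell, without overlap between the groups, as in 49.3% of all tested genes. SC averaged 53 CPM of Sik3 and 8.34 CPM of Sik1. Sik2 averaged 32 ± 1.44 CPM in SCRP, against 30.9 ± 2.53 CPM in SCR and did not pass (adjusted p = 0.652). All 3 CRTC coactivator genes rose, Crtc3 by 0.41 ± 0.08 and Crtc1 by 0.35 ± 0.09, and over the whole list of salt-inducible kinases, LKB1 and CRTC components 7 of 20 members rose and 3 fell. Of the 7 class IIa histone deacetylase and MEF2 factor genes, 3 rose and 1 fell. Mef2c, a MEF2 factor of the myeloid lineage, rose to 41.7 ± 5.24 CPM in SCRP, against 23.8 ± 3.53 CPM in SCR (0.81 ± 0.11, adjusted p = 1.94e-05), and Mef2d fell by 0.31 on the log2 scale. Among 21 tested CREB-responsive and immediate early genes, 5 rose and 4 fell, near the 17.9% and 19.9% of all tested genes. Atf3, a stress-induced factor, rose (0.95 ± 0.08), and Egr1, a serum-responsive factor, and Ptgs2, cyclooxygenase-2, fell (-1.86 ± 0.23 and -0.81 ± 0.21).

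The transcription factors of the osteoclast split into a group that fell and a group that did not. Nfatc1 had 191, 164 and 159.8 CPM in SCRP, against 488, 463 and 459.7 CPM in SCR (-1.46 ± 0.06, adjusted p = 2.69e-11), and SC averaged 57 CPM. Prdm1, which encodes Blimp1, a silencer of the repressor genes, had 58.1, 43.4 and 47 CPM in SCRP, against 125, 111 and 121 CPM in SCR (-1.27 ± 0.11, adjusted p = 2.45e-07). Fosl2, an AP-1 subunit, had 175, 159 and 146 CPM in SCRP, against 441, 425 and 424 CPM in SCR (-1.43 ± 0.06). In each of these 3 genes every SCRP library was below every SCR library and above every SC library. Of the 24 factors listed, 9 fell and 4 rose, with a list median of -0.11. The rises included Myc (0.39 ± 0.05, adjusted p = 1.92e-05), a transcription factor of growth and early differentiation, and Jun (0.32 ± 0.05, adjusted p = 5.70e-05), a partner of Fos, and Fos itself did not pass (0.09 ± 0.07, adjusted p = 0.363).

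The gene of the RANK receptor differed little, and genes of its signalling moved in both directions. Tnfrsf11a, which encodes RANK, had 279.9, 253 and 266 CPM in SCRP, against 299, 288 and 286 CPM in SCR (-0.13 ± 0.05, adjusted p = 0.0402), and this call was lost without any one of 5 libraries (adjusted p from 0.0656 to 0.190), the exception being SCRP replicate 1. Csf1r, the M-CSF receptor, had 1009, 1038 and 1046 CPM in SCRP, against 1004, 1051 and 999.9 CPM in SCR and did not pass (0.02 ± 0.04, adjusted p = 0.767). The SCRP and SCR ranges of Csf1r overlapped. Of 20 genes of RANK and TRAF signalling, 8 rose and 5 fell, beside 17.9% and 19.9% of all tested genes, with a list median of 0.04. Traf5, an adaptor of the TRAF family, fell to 7.28 ± 0.194 CPM in SCRP, against 10.4 ± 1.34 CPM in SCR (-0.52 ± 0.13, adjusted p = 0.00626). Map3k14, the kinase NIK of the alternative NF-κB arm, rose (0.47 ± 0.07), and Tnfaip3, which encodes the NF-κB inhibitor A20, fell (-0.73 ± 0.08, adjusted p = 1.28e-06). Ikbkg fell (-0.92 ± 0.05), but it overlaps G6pdx, a rising gene, and the strand that was counted is not given in the sources used here.

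Among costimulatory receptors and calcium signalling genes, the largest falls were in receptors. Oscar, an ITAM-coupled receptor of osteoclasts, had 2.53, 1.06 and 1.91 CPM in SCRP, against 25.9, 24.9 and 27 CPM in SCR (-3.83 ± 0.21, adjusted p = 8.07e-10). Siglec15, a sialic acid receptor needed for full osteoclast formation, had 1.38, 0.748 and 0.448 CPM in SCRP, against 8.93, 9.06 and 10.5 CPM in SCR (-3.48 ± 0.33). Rcan1, a calcineurin regulator that is itself an NFAT target, fell (-1.26 ± 0.07, adjusted p = 1.21e-09). Trem2, another ITAM-coupled receptor, rose to 272 ± 18.3 CPM in SCRP, against 211 ± 11.9 CPM in SCR (0.36 ± 0.06). Over the 21 tested members 9 fell and 6 rose, and Camk4 was too low to test.

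The enzymes that digest bone matrix showed some of the largest falls. The promoters of Ctsk and Acp5, with that of the receptor gene Calcr as the gene with the largest fall among the osteoclast receptors and that of Trem1 as the gene with the largest rise at 8 CPM or more, are printed as the 250 bases before the start (RefSeq, GRCm38.p6, 5′ to 3′ on the gene's strand). Capitals mark GGAAA, the core that NFAT factors recognise, and TGACG, the half-site of the cAMP response element, on either strand, so that TTTCC is the core on the other strand.
Ctsk promoter, chr3:95498960-95499209, plus strand: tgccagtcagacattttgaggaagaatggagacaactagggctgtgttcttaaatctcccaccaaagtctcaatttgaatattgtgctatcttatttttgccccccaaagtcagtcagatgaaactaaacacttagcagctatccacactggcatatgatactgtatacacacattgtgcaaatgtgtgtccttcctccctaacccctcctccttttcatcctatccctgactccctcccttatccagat
Acp5 promoter, chr9:22135747-22135996, minus strand: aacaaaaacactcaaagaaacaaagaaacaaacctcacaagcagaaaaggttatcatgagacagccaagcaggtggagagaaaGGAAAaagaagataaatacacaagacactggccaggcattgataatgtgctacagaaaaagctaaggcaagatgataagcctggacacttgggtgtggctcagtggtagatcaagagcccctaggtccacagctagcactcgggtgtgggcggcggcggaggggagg
Calcr promoter, chr6:3764714-3764963, minus strand: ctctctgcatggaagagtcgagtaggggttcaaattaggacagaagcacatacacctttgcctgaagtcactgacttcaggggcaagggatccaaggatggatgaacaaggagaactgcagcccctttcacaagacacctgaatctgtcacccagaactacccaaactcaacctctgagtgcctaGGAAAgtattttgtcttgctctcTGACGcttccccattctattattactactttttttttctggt
Trem1 promoter, chr17:48232489-48232738, plus strand: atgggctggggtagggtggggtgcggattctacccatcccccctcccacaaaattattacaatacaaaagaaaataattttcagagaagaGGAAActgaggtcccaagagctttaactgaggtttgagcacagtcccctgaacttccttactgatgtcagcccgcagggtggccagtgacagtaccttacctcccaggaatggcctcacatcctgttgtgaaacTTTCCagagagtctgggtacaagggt
GGAAA occurred 1 time in the Acp5 window, 1 time in that of Calcr and 2 times in that of Trem1, and it is not in the letters of the Ctsk window. TGACG occurred 1 time, in Calcr. Neither the AP-1 site TGANTCA nor the full element TGACGTCA, which contains the half-site, is in these 4 windows. Of all 32851 promoters of the reference, 55.6% hold GGAAA, 17.8% TGACG, 6.75% TGANTCA and 1.55% TGACGTCA in the same 250 bases. Over the 13119 promoters of the 10314 tested genes that matched, 54.4% hold GGAAA, 26.0% TGACG, 4.66% TGANTCA and 2.51% TGACGTCA. Among genes that fell at least 2-fold the shares, in the same order, were 55.6%, 15.4%, 10.1% and 1.83% over 602 promoters of the 448 genes that matched of 637. Among genes that rose at least 2-fold they were 53.1%, 22.8%, 4.83% and 4.83% over 145 promoters of 122 of 182 genes.

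Ctsk, cathepsin K, which cleaves bone collagen (chromosome 3, 95499256 to 95509362), had 169.5, 128 and 128 CPM in SCRP, against 1493, 1474 and 1412 CPM in SCR (-3.37 ± 0.10, adjusted p = 1.34e-12), where SC averaged 1.57 CPM. Acp5, tartrate-resistant acid phosphatase (chromosome 9, 22126727 to 22135711), had 164, 124 and 126 CPM in SCRP, against 1035, 1003 and 1017 CPM in SCR (-2.88 ± 0.10), with 69.5% unique reads. Mmp9, gelatinase B, had 687, 497 and 599.8 CPM in SCRP, against 1801, 1614 and 1771 CPM in SCR (-1.54 ± 0.11). All 3 stood lower in every SCRP library than in every SCR library, and well above SC. Mmp8, the collagenase first known from neutrophils, went lower than in either other group, at 2, 1.89 and 1.63 CPM in SCRP, against 34.7, 43 and 35.2 CPM in SCR and 75.4 ± 3.74 CPM in SC (SD). Of the 14 listed proteases, phosphatase and inhibitors 9 fell and 2 rose, with a list median of -0.90. The rises were Adam8, a membrane protease (2328, 2568 and 2339 CPM in SCRP, against 1016, 1102 and 1038 CPM in SCR; 1.20 ± 0.05), and Mmp12, the macrophage elastase (0.52 ± 0.08, adjusted p = 9.96e-05). Per length, the deposited RPKM of Ctsk averaged 87.4 in SCRP, against 895 in SCR, while that of Adam8 averaged 485 in SCRP, against 210.3 in SCR.

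**Figure D2:**
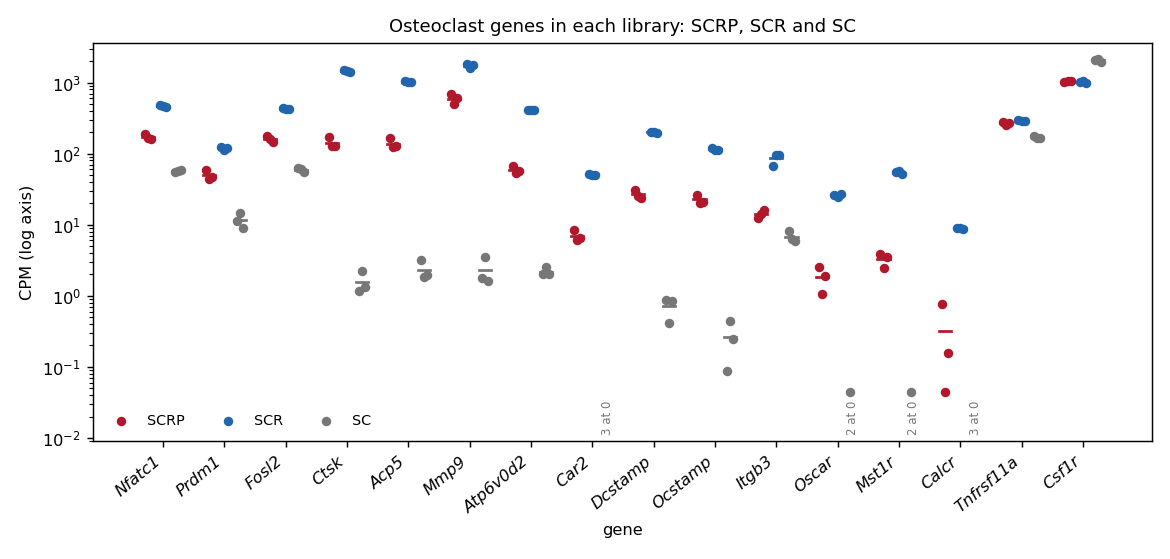
CPM of 16 genes in each library on a log axis, with SCRP (red), SCR (blue) and SC (grey) side by side, a point per library and a bar at the mean. Libraries without a read are written as at 0. The osteoclast genes from Nfatc1 to Calcr are lower in each SCRP library than in each SCR library, and Tnfrsf11a and Csf1r lie close together in SCRP and SCR.

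Genes of acid secretion fell almost as a whole. Of 25 genes of the vacuolar proton pump and its partners, 23 fell and 1 rose, with a list median of -0.68. Atp6v0d2, a pump subunit of fusing osteoclasts, had 66.2, 52.5 and 57 CPM in SCRP, against 404, 404 and 408 CPM in SCR (-2.79 ± 0.07, adjusted p = 1.96e-13). Car2, the carbonic anhydrase that supplies protons, had 8.42, 6.01 and 6.52 CPM in SCRP, against 52.2, 50.3 and 50.7 CPM in SCR (-2.87 ± 0.11), with no read in SC. Slc9b2, a sodium-proton exchanger of osteoclasts, averaged 25.5 ± 2.52 CPM in SCRP, against 136 ± 3.68 CPM in SCR (-2.41 ± 0.08). None of the 3 overlapped between SCRP and SCR, as in 49.3% of all tested genes. Atp6v1b2, the pump's nucleotide-binding B2 subunit used in many cells, still averaged 484 ± 5.67 CPM in SCRP, against 1144 ± 28.7 CPM in SCR (-1.24 ± 0.04, adjusted p = 2.94e-12). The 1 rise, Atp6v0a1, was small (0.24 ± 0.07, adjusted p = 0.0135), and it was lost without any one of 3 libraries (adjusted p from 0.0537 to 0.0851).

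Fusion genes moved in both directions. Dcstamp, the transmembrane protein required for precursors to fuse, had 31.2, 25.7 and 23.9 CPM in SCRP, against 202, 202 and 195 CPM in SCR (-2.89 ± 0.09, adjusted p = 1.34e-12), and its relative Ocstamp had 26.5, 20.5 and 20.9 CPM in SCRP, against 119.5, 113 and 114 CPM in SCR (-2.35 ± 0.10). P2rx5, an ATP-gated channel of osteoclasts, averaged 0.542 ± 0.121 CPM in SCRP, against 5.52 ± 0.602 CPM in SCR (-3.34 ± 0.36). Against these falls, Adam8, named above with the matrix enzymes, had the largest rise of the list (1.20). Cd81, a tetraspanin, also rose (0.62 ± 0.07, adjusted p = 2.83e-06), as did Sirpa, the receptor of CD47 (0.46 ± 0.03, adjusted p = 3.08e-08). In all 7 of 14 members fell and 5 rose, beside 19.9% and 17.9% of all tested genes. Of 28 integrin, podosome and actin ring genes, 17 fell and 3 rose, with a median of -0.26. Itgb3, the β3 integrin subunit of the sealing zone, had 12.3, 14.3 and 16.3 CPM in SCRP, against 67.1, 94.6 and 94.7 CPM in SCR (-2.57 ± 0.14, adjusted p = 6.26e-10). Cttn, cortactin, averaged 2.9 ± 0.206 CPM in SCRP, against 18.8 ± 3.2 CPM in SCR (-2.69 ± 0.16), and Itga2, an integrin of collagen binding, averaged 2.06 ± 0.175 CPM in SCRP, against 8.89 ± 0.63 CPM in SCR (-2.11 ± 0.30). Itgb5, the β5 subunit that precursors carry before β3, rose to 127 ± 12 CPM in SCRP, against 75.6 ± 9.71 CPM in SCR (0.75 ± 0.10, adjusted p = 1.42e-05).

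Receptors of the mature cell fell, next to other receptors that rose. Calcr, the calcitonin receptor (chromosome 6, 3685680 to 3764714), had 0.763, 0.044 and 0.156 CPM in SCRP, against 9.07, 9.08 and 8.79 CPM in SCR, from 42 reads over the SCRP libraries and 1238 over the SCR libraries (-4.84 ± 0.53, adjusted p = 5.42e-06). Mst1r, a receptor kinase, had 3.89, 2.49 and 3.46 CPM in SCRP, against 54.4, 56.9 and 51.3 CPM in SCR (-4.05 ± 0.14, adjusted p = 3.81e-12). F2r, the thrombin receptor, averaged 1.48 ± 0.395 CPM in SCRP, against 20.3 ± 1.17 CPM in SCR (-3.79 ± 0.17), and Cd200, a surface ligand of myeloid inhibition, averaged 4.49 ± 1.35 CPM in SCRP, against 50.5 ± 3.31 CPM in SCR (-3.49 ± 0.18). Ednrb, an endothelin receptor, rose without overlap, with 61.8, 63.3 and 67.2 CPM in SCRP, against 17.7, 17.6 and 19.5 CPM in SCR (1.81 ± 0.13, adjusted p = 1.28e-08), and Adora2b, an adenosine receptor, rose to 14.9 ± 1.51 CPM in SCRP, against 6.09 ± 0.458 CPM in SCR (1.30 ± 0.12). Over 20 receptors 9 fell and 6 rose, with a median of -0.76. Of 13 tested secreted factors, 8 fell and 1 rose (4 more were too low to test). Lif, a cytokine of bone remodelling, averaged 0.616 ± 0.21 CPM in SCRP, against 9.63 ± 0.86 CPM in SCR (-3.97 ± 0.28, adjusted p = 1.48e-08), and Sphk1, the kinase that makes sphingosine 1-phosphate, averaged 0.284 ± 0.129 CPM in SCRP, against 5.05 ± 0.45 CPM in SCR (-4.13 ± 0.37). The rise was Igf1, insulin-like growth factor 1 (0.46 ± 0.06, adjusted p = 2.15e-05).

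Genes that restrain osteoclast formation were higher. Of 17 tested repressors 14 rose and 1 fell, with a list median of 0.50. Irf8, an interferon regulatory factor, had 54.8, 61.9 and 55.1 CPM in SCRP, against 25.9, 29.4 and 26.2 CPM in SCR (1.08 ± 0.06, adjusted p = 1.54e-09), with 46.2% unique reads, and Lilrb4a, an inhibitory receptor, rose by 1.08 ± 0.04 with 9.61% unique reads. Neither overlapped between the groups, as in 49.3% of all tested genes, and SC averaged 157 CPM of Irf8. The fall was Zbtb7a (-0.16 ± 0.05, adjusted p = 0.00842).

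**Figure D3:**
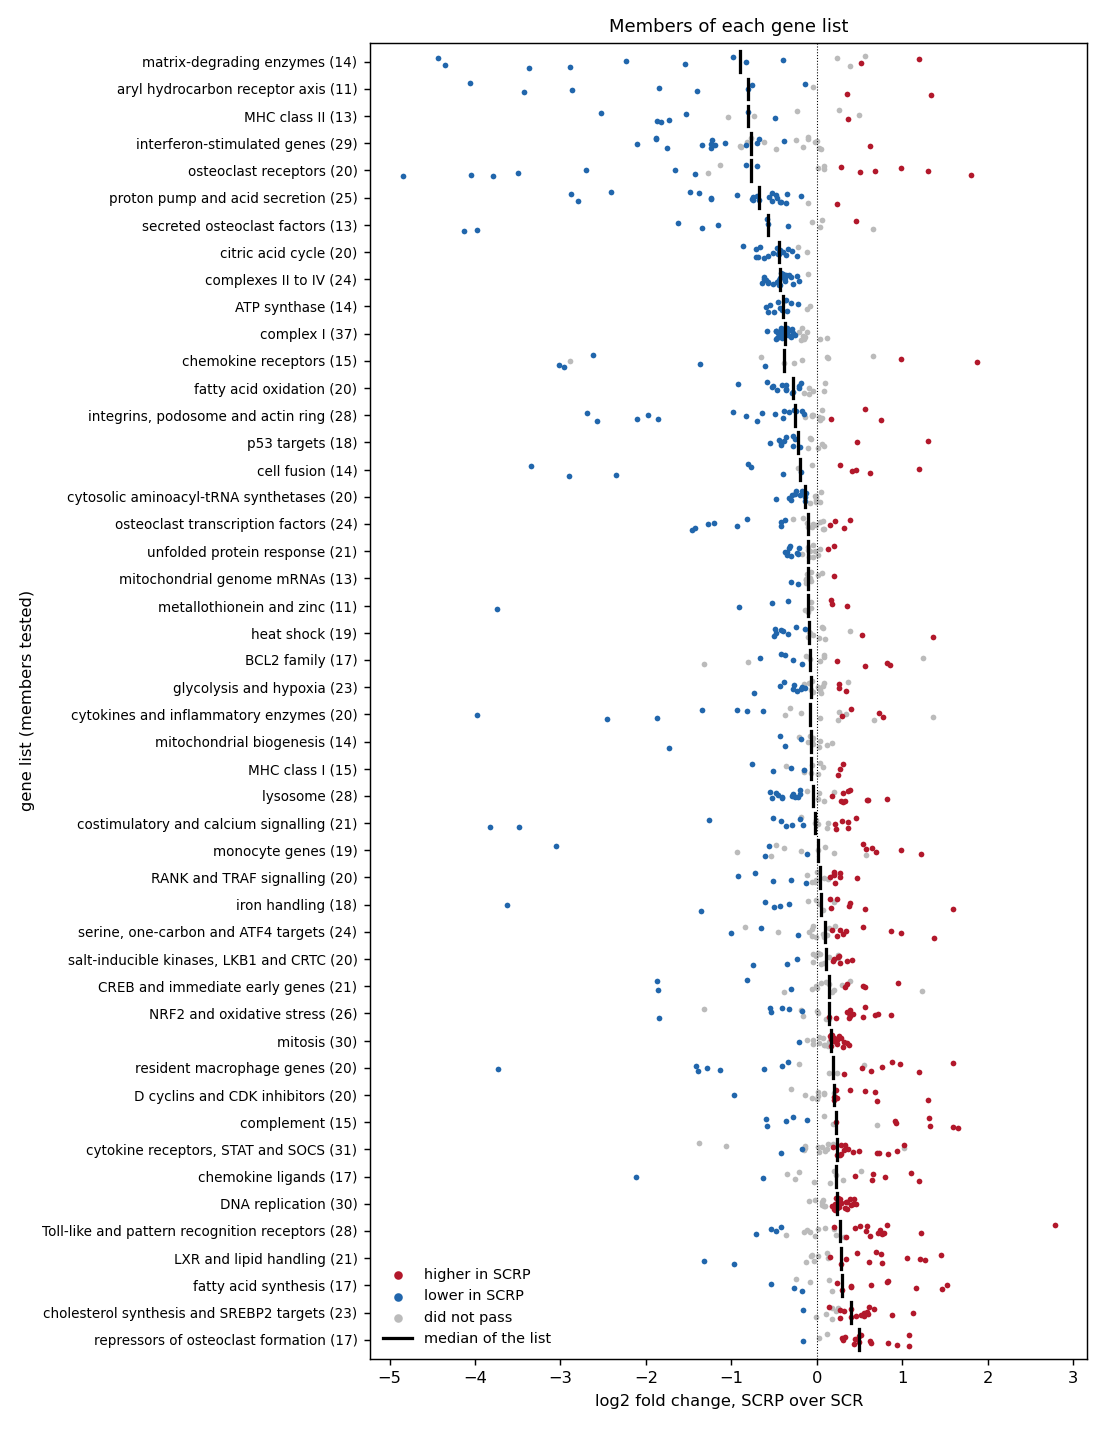
Log2 fold change of SCRP over SCR for each tested member of the lists with at least 10 tested members, ordered by list median (black bars). Lists of markers of other cells are not drawn. Red points rose, blue points fell and grey points did not pass. Medians run from -0.90 for matrix-degrading enzymes to 0.50 for repressors of osteoclast formation, against 0.0046 over all tested genes.

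Nuclear genes of mitochondrial energy production fell together by small amounts. Of 37 complex I subunits 28 fell and 0 rose (median -0.38), of 24 genes of complexes II to IV 23 fell and 0 rose (median -0.43), and of 14 ATP synthase genes 11 fell and 0 rose (median -0.40). Atp5b, the catalytic β subunit of ATP synthase, had 1018, 984 and 963 CPM in SCRP, against 1495, 1434 and 1467 CPM in SCR (-0.57 ± 0.04, adjusted p = 3.37e-09). Uqcrc2, a core subunit of complex III, averaged 136 ± 1.37 CPM in SCRP, against 211 ± 7.32 CPM in SCR (-0.64 ± 0.04), and Ndufs1, the largest complex I subunit, averaged 117 ± 2.98 CPM in SCRP, against 175 ± 0.925 CPM in SCR (-0.58 ± 0.04). Each SCRP library was lower than each SCR library in these 3 genes.

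The 13 messenger RNAs of the mitochondrial genome, which encode subunits of the same complexes, had a median of -0.10, with 2 falls and 1 rise. These counts were not stable. Without SCRP replicate 3, the library with haemoglobin reads, 8 fell and 0 rose, with the replicate block 6 fell and with no filter 5 fell, while 1 fell without SCR replicate 2, without SCR replicate 3 or by DESeq2. mt-Nd1 fell (-0.22 ± 0.06, adjusted p = 0.00496). mt-Co1, the catalytic subunit of complex IV, had 9245, 9497 and 11162 CPM in SCRP, against 8498, 8635 and 8846 CPM in SCR (0.20 ± 0.06, adjusted p = 0.0111), and this rise was lost without SCRP replicate 3 (adjusted p = 0.0608). Genes of the mitochondrial chromosome took 3.22% to 3.77% of exon reads in SCRP and 3.29% to 3.47% in SCR, ranges that overlap. Whether the nuclear and mitochondrial groups differ was not tested.

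**Figure D4:**
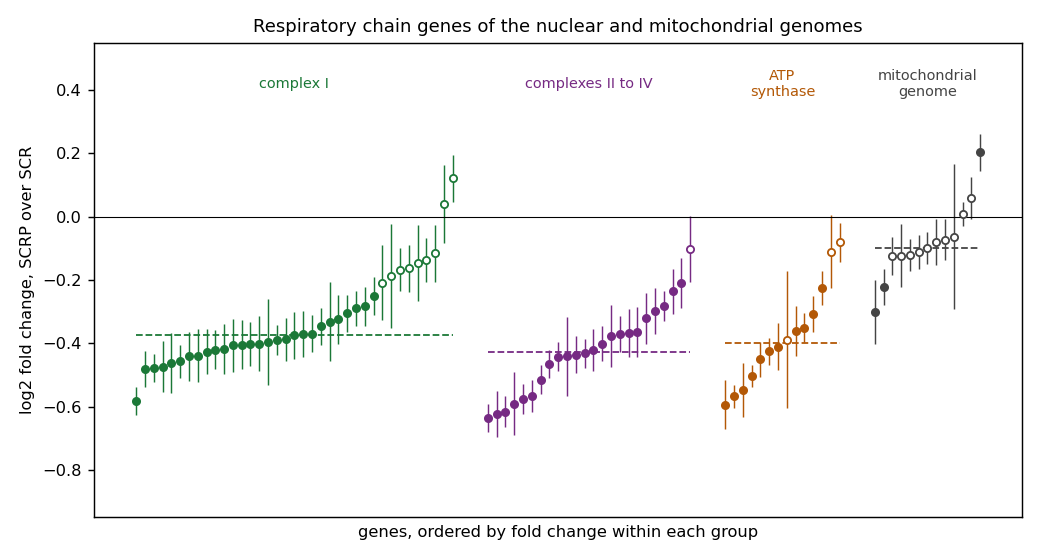
Log2 fold change of SCRP over SCR with its standard error for each subunit gene, ordered within each group, with the group median dashed. Filled points passed and open points did not. The nuclear groups have medians of -0.38, -0.43 and -0.40, and the mitochondrial genome group has a median of -0.10.

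Ppargc1b, a coactivator that drives mitochondrial biogenesis in osteoclasts, had 11.5, 12.8 and 10.9 CPM in SCRP, against 42.1, 38.6 and 36.5 CPM in SCR (-1.73 ± 0.12, adjusted p = 8.73e-09), and its partner Esrra, an orphan nuclear receptor, fell (-0.38 ± 0.07, adjusted p = 4.59e-04). Of 14 tested biogenesis genes 4 fell and 0 rose. The citric acid cycle fell in 18 of 20 genes with 0 rises (median -0.45), Mdh2, malate dehydrogenase, at 256, 257 and 251 CPM in SCRP, against 434, 406 and 408 CPM in SCR (-0.71 ± 0.04) and Pdhb, a subunit of pyruvate dehydrogenase, at 93.8 ± 3.27 CPM in SCRP, against 171 ± 7.54 CPM in SCR (-0.86 ± 0.05, adjusted p = 1.12e-09). Fatty acid oxidation fell in 14 of 20 tested genes with 0 rises (median -0.28), Acaa2, the last thiolase of the mitochondrial pathway, by 0.93 on the log2 scale. Glycolysis and hypoxia genes did not move as one. Of 23 tested, 9 fell, among them Hk1, a hexokinase (-0.73 ± 0.05, adjusted p = 2.99e-09), and 3 rose, among them Pfkl, a phosphofructokinase (0.34 ± 0.05, adjusted p = 5.29e-05).

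Genes of amino acid supply moved in both directions. Phgdh, the first enzyme of serine synthesis, had 17.3, 18.8 and 16.6 CPM in SCRP, against 7.54, 6.07 and 6.72 CPM in SCR (1.37 ± 0.14, adjusted p = 1.03e-06). Slc7a11, the cystine carrier, rose to 32 ± 2.52 CPM in SCRP, against 17.5 ± 1.16 CPM in SCR (0.87 ± 0.09), and Slc1a5, a glutamine carrier, fell to 154 ± 13.8 CPM in SCRP, against 242 ± 3.79 CPM in SCR (-0.66 ± 0.06). Of 24 tested genes of serine, one-carbon and ATF4 pathways 9 rose and 3 fell. Of 20 cytosolic aminoacyl-tRNA synthetases 12 fell and 0 rose. Without SCR replicate 1, or without SCRP replicate 2, 7 synthetases fell. The unfolded protein response had 2 rises and 9 falls among 21 genes, none of them over 1.5-fold (log2 fold changes from -0.37 to 0.20). Of 19 heat shock genes 2 rose and 8 fell, the largest rise being Hspa1b, an inducible HSP70, at 13.8 ± 0.766 CPM in SCRP, against 5.34 ± 1.66 CPM in SCR (1.36 ± 0.22, 73.5% unique reads).

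Lipid synthesis genes were higher. Of 23 tested cholesterol synthesis and SREBP2 target genes 16 rose and 1 fell (median 0.40). Tm7sf2, a sterol reductase, averaged 8.04 ± 0.317 CPM in SCRP, against 3.69 ± 1.24 CPM in SCR (1.13 ± 0.21, adjusted p = 3.66e-04), and its locus overlaps Vps51. Fdft1, squalene synthase, averaged 34.2 ± 5.06 CPM in SCRP, against 18.5 ± 2.23 CPM in SCR (0.88 ± 0.11), though it overlaps Ctsb, a rising gene. The fall, Ebp, was small (-0.16 ± 0.06, adjusted p = 0.0473) and was lost without any one of the 6 libraries (adjusted p from 0.0648 to 0.146). Of 17 tested fatty acid synthesis genes 10 rose and 3 fell (median 0.30). Fads2, a desaturase, had 14.9, 18 and 21.7 CPM in SCRP, against 6.41, 5.39 and 7.05 CPM in SCR (1.53 ± 0.20, adjusted p = 1.76e-05), and Scd2, another desaturase, averaged 204 ± 34.9 CPM in SCRP, against 90.5 ± 34.8 CPM in SCR (1.16 ± 0.26, adjusted p = 0.00225).

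Targets of the sterol receptor LXR and other lipid handling genes rose in 12 of 21 tested cases and fell in 2 (median 0.28). Cd36, a fatty acid and lipoprotein receptor, had 907, 1034 and 1075 CPM in SCRP, against 455, 502 and 499.7 CPM in SCR (1.05 ± 0.06, adjusted p = 9.47e-10). Mylip, the LXR-induced ligase that degrades the LDL receptor, rose to 31.2 ± 3.57 CPM in SCRP, against 13 ± 1.08 CPM in SCR (1.26 ± 0.09), and Pltp, a phospholipid transfer protein, rose to 136 ± 19 CPM in SCRP, against 59.2 ± 7.55 CPM in SCR (1.20 ± 0.09), where SC averaged 11.7 CPM. Nr1h3, the gene of LXRα itself, fell to 7.04 ± 0.96 CPM in SCRP, against 13.8 ± 1.15 CPM in SCR (-0.97 ± 0.15, adjusted p = 6.46e-05). Lysosomal genes went both ways, 10 of 28 higher and 13 lower. Ctsb, cathepsin B, averaged 4339 ± 390.1 CPM in SCRP, against 3444 ± 307 CPM in SCR (0.33 ± 0.06), Ctsh, cathepsin H, averaged 54.7 ± 5.24 CPM in SCRP, against 30.9 ± 2.63 CPM in SCR (0.83 ± 0.08), and Ctss, cathepsin S, averaged 463 ± 33.6 CPM in SCRP, against 668 ± 41 CPM in SCR (-0.53 ± 0.07). In these cathepsins the first 2 rose and Ctss fell, in contrast to the much larger fall of Ctsk.

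The aryl hydrocarbon receptor and its targets moved apart. Ahr, the ligand-activated receptor of planar aromatic compounds, had 35.1, 31.2 and 33.3 CPM in SCRP, against 13, 12.9 and 13.6 CPM in SCR (1.33 ± 0.11, adjusted p = 5.84e-08). Ahrr, the repressor that the receptor induces, had 4.01, 2.93 and 2.69 CPM in SCRP, against 38.3, 33.5 and 31.5 CPM in SCR (-3.43 ± 0.14, adjusted p = 1.94e-11). Cyp2s1, a cytochrome P450, averaged 3.68 ± 0.678 CPM in SCRP, against 26.9 ± 2.89 CPM in SCR (-2.87 ± 0.16). The receptor rose and these 2 genes fell, without overlap of libraries, as in 49.3% of all tested genes. Of the 11 tested genes of the axis 8 fell and 2 rose (median -0.81), the other rise being the receptor's partner Arnt (0.35 ± 0.06). Cyp1a1, the best known target, was too low to test. Nqo1, a quinone reductase induced by both Ahr and NRF2, had 16.2, 15.6 and 14 CPM in SCRP, against 54.6, 53.2 and 56.5 CPM in SCR (-1.84 ± 0.07), while 13 of 26 NRF2 and oxidative stress genes rose and 6 fell. Prdx1, a peroxiredoxin, rose to 2116 ± 201 CPM in SCRP, against 1325 ± 78.8 CPM in SCR (0.68 ± 0.06, adjusted p = 1.10e-07), and G6pdx, which makes NADPH, rose by 0.72 ± 0.05, with 74.2% unique reads.

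Iron handling genes moved in both directions, with 7 of 18 rising and 6 falling, beside 17.9% and 19.9% of all tested genes. Tfrc, the transferrin receptor that takes iron up, had 306, 309 and 300.5 CPM in SCRP, against 742, 817 and 774 CPM in SCR (-1.35 ± 0.06, adjusted p = 5.59e-11). Slc40a1, ferroportin, the exporter, had 111, 133 and 126 CPM in SCRP, against 39.8, 43.7 and 39.3 CPM in SCR (1.59 ± 0.07, adjusted p = 3.63e-11). Ncoa4, the receptor that delivers ferritin to lysosomes, fell (-0.60 ± 0.05), and Ftl1, named above, rose (0.56 ± 0.06). Tfrc was lower and Slc40a1 and Ftl1 were higher in every SCRP library than in every SCR library, a separation found in 49.3% of all tested genes. The fall of largest fold in the list was that of Steap4, a metalloreductase, which had 1.1, 0.308 and 0.37 CPM in SCRP, against 6.14, 5.73 and 9.76 CPM in SCR (-3.62 ± 0.42, adjusted p = 1.06e-05). Mt3, a metallothionein without a read in SC, had 6.15, 3.87 and 4.44 CPM in SCRP, against 71.7, 62.5 and 58.1 CPM in SCR (-3.74 ± 0.14, adjusted p = 8.54e-11). Of 11 metallothionein and zinc genes 3 rose and 4 fell.

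Genes of cell death and arrest were not raised as a group. Of 18 p53 targets 2 rose and 10 fell (median -0.22). Gadd45a, a stress-induced arrest gene, rose to 13.7 ± 0.804 CPM in SCRP, against 5.55 ± 1.41 CPM in SCR (1.31 ± 0.16, adjusted p = 9.13e-06), and Fas, a death receptor, fell (-0.55 ± 0.14, adjusted p = 0.0052). Of 17 tested BCL2 family genes 4 rose and 5 fell, again near the shares over all tested genes, with 3 falls left without SCR replicate 1 or without SCRP replicate 2. Bcl2l1, the survival gene BCL-XL, had 55.5, 64.6 and 61.8 CPM in SCRP, against 32.5, 33.8 and 34 CPM in SCR (0.86 ± 0.06, adjusted p = 6.52e-09), and Bmf, a death-promoting member, fell to 13.4 ± 0.799 CPM in SCRP, against 21.2 ± 1.51 CPM in SCR (-0.66 ± 0.12).

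Growth genes were slightly higher. Of 30 DNA replication genes 23 rose and 0 fell (median 0.24), and of 30 mitosis genes 18 rose and 1 fell (median 0.17), the rises coming to 11 without SCR replicate 2. Pold1, the catalytic subunit of DNA polymerase δ, had 96.2, 96.1 and 92.8 CPM in SCRP, against 73.2, 67.3 and 67.2 CPM in SCR (0.46 ± 0.05, adjusted p = 3.82e-06). Mad2l1, a spindle checkpoint gene, averaged 119.8 ± 2.66 CPM in SCRP, against 93.7 ± 3.68 CPM in SCR (0.35 ± 0.06). Among 20 cyclin, CDK inhibitor and growth regulator genes 10 rose and 1 fell, with Ccnd1, cyclin D1, at 867, 868 and 878 CPM in SCRP, against 495, 558 and 546 CPM in SCR (0.71 ± 0.05, 54.6% unique reads). Cdkn1c, the CDK inhibitor p57, was the fall (-0.97 ± 0.23, adjusted p = 0.00368).

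Among genes of innate recognition, Trem1, an amplifier of inflammatory signals in neutrophils and monocytes (chromosome 17, 48232768 to 48246924), had 18.8, 19.96 and 20.2 CPM in SCRP, against 3.05, 2.85 and 2.65 CPM in SCR (2.79 ± 0.14, adjusted p = 3.31e-10). SC averaged 26.3 ± 5.38 CPM (SD), so the SCRP level was nearer to SC than to SCR. Cd14, the lipopolysaccharide co-receptor, had 97.4, 96.9 and 95.7 CPM in SCRP, against 41.6, 40.7 and 41.8 CPM in SCR (1.22 ± 0.05, adjusted p = 8.72e-12), and Tlr13, a receptor of bacterial ribosomal RNA, averaged 273 ± 20.4 CPM in SCRP, against 158 ± 13.6 CPM in SCR (0.79 ± 0.06). Of 28 Toll-like and pattern recognition receptor genes 14 rose and 4 fell (median 0.27), the falls including Tlr7, a receptor of single-stranded RNA (-0.72 ± 0.08, adjusted p = 2.18e-06).

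The 3 chains of C1q, the first complement component and a product of tissue macrophages, rose together. C1qa (chromosome 4, 136895917 to 136898803) had 188, 206 and 201 CPM in SCRP, against 56.7, 68.1 and 64.6 CPM in SCR (1.65 ± 0.07, adjusted p = 2.69e-11), C1qb rose by 1.60 ± 0.08 and C1qc by 1.32 ± 0.08. In SC they averaged 323, 965 and 589.9 CPM. Complement as a whole had 7 rises and 5 falls among 15 tested genes, with C3, the central component, lower (-0.58 ± 0.08, adjusted p = 2.94e-05). The 5 falls came to 1 without SCR replicate 2, SCR replicate 3, SCRP replicate 1 or SCRP replicate 2, and to 3 with library totals in place of TMM. Resident macrophage genes had 8 rises and 8 falls among 20 tested. Mertk, a receptor for the uptake of dying cells, had 35.1, 42.1 and 42.6 CPM in SCRP, against 14.1, 19.6 and 18.7 CPM in SCR (1.20 ± 0.10, adjusted p = 8.80e-08), while Axl, its relative, fell to 2.29 ± 0.0867 CPM in SCRP, against 6.01 ± 1.03 CPM in SCR (-1.39 ± 0.21), and F13a1, factor XIII, fell to 4 ± 0.0462 CPM in SCRP, against 9.79 ± 0.948 CPM in SCR (-1.29 ± 0.08), where SC averaged 221 CPM. Monocyte genes had 6 rises and 4 falls among 19 tested, Cx3cr1, the fractalkine receptor, at 138 ± 24 CPM in SCRP, against 69.7 ± 8.88 CPM in SCR (0.99 ± 0.14) and Vcan, the proteoglycan versican, at 10.9 ± 1.87 CPM in SCRP, against 89.97 ± 5.2 CPM in SCR (-3.05 ± 0.17). Markers of monocytes and macrophages did not all move one way.

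**Figure D5:**
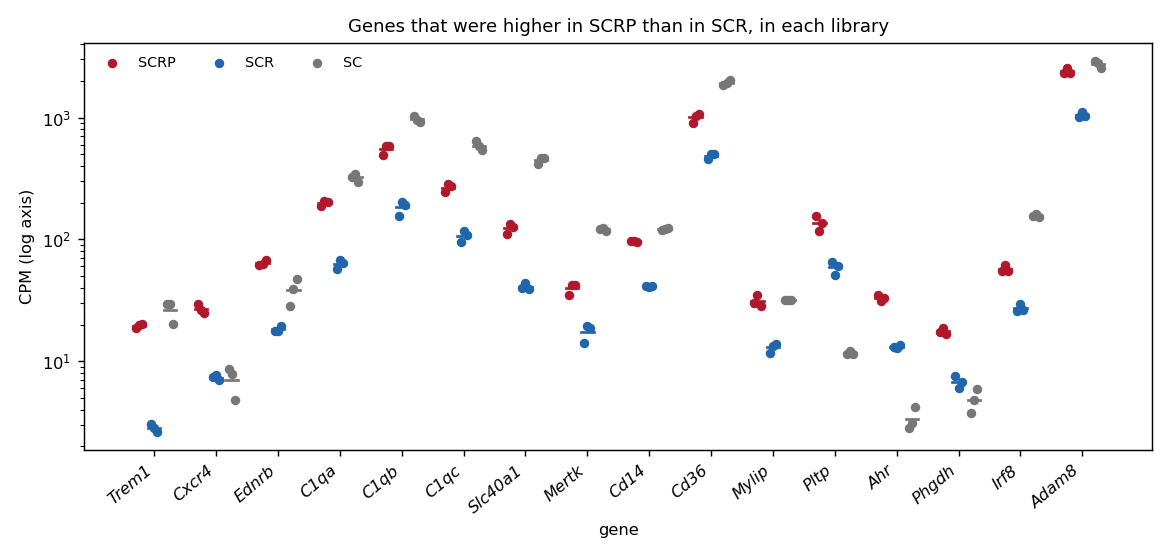
CPM of 16 genes that rose in SCRP, in each library on a log axis, with SCRP (red), SCR (blue) and SC (grey) side by side, a point per library and a bar at the mean. In each gene the 3 SCRP libraries lie above the 3 SCR libraries, and SC lies above SCRP in some genes such as C1qb and below it in others such as Ahr, Phgdh and Pltp.

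Chemokine receptors differed by member. Cxcr4, the receptor that retains cells in marrow, had 29.6, 26.3 and 24.9 CPM in SCRP, against 7.36, 7.66 and 6.99 CPM in SCR (1.88 ± 0.15, adjusted p = 7.45e-08). Ccr1 had 26.7, 24.7 and 23.2 CPM in SCRP, against 199.8, 194 and 187 CPM in SCR (-2.96 ± 0.06, adjusted p = 9.67e-15). Ccr3, the eotaxin receptor, averaged 3.29 ± 0.958 CPM in SCRP, against 26.4 ± 1.25 CPM in SCR (-3.01 ± 0.16). The first rose and the other 2 fell. Over the 15 tested receptors 2 rose and 5 fell, beside 17.9% and 19.9% of all tested genes. Of 17 tested chemokine ligands 6 rose and 2 fell, with Cxcl16 higher (123 ± 7.25 CPM in SCRP, against 57.3 ± 4.03 CPM in SCR; 1.11 ± 0.06) and Ccl9, a ligand of CCR1 made by osteoclasts, lower (839.9 ± 38.6 CPM in SCRP, against 1304 ± 8.09 CPM in SCR; -0.63 ± 0.05). Of 20 tested cytokines and inflammatory enzymes 4 rose and 7 fell. Il1rn, the interleukin 1 receptor antagonist, had 12.6, 10.4 and 9.89 CPM in SCRP, against 57.4, 62.8 and 59.9 CPM in SCR (-2.45 ± 0.09, adjusted p = 1.30e-11), and Il10, low in both groups, fell to 1.14 ± 0.62 CPM in SCRP, against 4.18 ± 0.603 CPM in SCR (-1.87 ± 0.32, adjusted p = 2.39e-04). Another 8 of the list, Il6 and Nos2 among them, were too low to test.

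Receptors and feedback inhibitors of cytokine signalling rose in 16 of 31 tested cases and fell in 2 (median 0.23). Socs3, a feedback inhibitor of STAT3 signals, had 17.8, 18.4 and 15.6 CPM in SCRP, against 8.57, 9.69 and 7.27 CPM in SCR (1.02 ± 0.12, adjusted p = 4.02e-06), and Il10ra, the IL-10 receptor chain, rose to 36.6 ± 4.32 CPM in SCRP, against 20.6 ± 3.02 CPM in SCR (0.83 ± 0.10). Interferon-stimulated genes were lower, 14 of 29 falling and 1 rising (median -0.77). Rtp4 averaged 1.59 ± 0.518 CPM in SCRP, against 5.85 ± 2.26 CPM in SCR (-1.88 ± 0.28, adjusted p = 4.98e-05) and Isg15, the ubiquitin-like modifier, averaged 0.968 ± 0.236 CPM in SCRP, against 3.26 ± 1.04 CPM in SCR (-1.76 ± 0.31). The rise was Ifitm3, a membrane restriction factor, at 193, 189 and 187 CPM in SCRP, against 115, 125 and 127 CPM in SCR (0.63 ± 0.05). Genes of antigen presentation by MHC class II were also lower, 7 of 13 tested falling and 1 rising (median -0.80), H2-Ab1 at 3.96, 3.81 and 3.72 CPM in SCRP, against 12.6, 15.1 and 14.5 CPM in SCR (-1.87 ± 0.15, adjusted p = 6.40e-08) and H2-Aa at 4.53 ± 1.1 CPM in SCRP, against 16.1 ± 2.92 CPM in SCR (-1.82 ± 0.19). MHC class I had 3 rises and 4 falls among 15 tested genes, and Fc receptors had 1 rise and 2 falls among 8, both near the shares over all tested genes.

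Other genes with the largest falls at 8 CPM or more lay outside these groups. Nyap2, an adaptor of PI3-kinase signals known from neurons, had 1.29, 0.66 and 0.798 CPM in SCRP, against 20.5, 21.7 and 24 CPM in SCR (-4.60 ± 0.22, adjusted p = 1.22e-10). Col27a1, a fibrillar collagen, averaged 1.74 ± 0.737 CPM in SCRP, against 27.5 ± 4.69 CPM in SCR (-3.99 ± 0.25), and Apbb1, an adaptor that binds amyloid precursor protein, averaged 2.06 ± 0.495 CPM in SCRP, against 27.9 ± 1.12 CPM in SCR (-3.77 ± 0.16). Slc18a1, a vesicular monoamine carrier, averaged 4.38 ± 1.01 CPM in SCRP, against 47.8 ± 5 CPM in SCR (-3.44 ± 0.19), though it overlaps Atp6v1b2. Of the largest rises, Nes, the intermediate filament nestin, had 19.1, 19.7 and 21.1 CPM in SCRP, against 3.72, 5.65 and 5.79 CPM in SCR (1.99 ± 0.12, adjusted p = 2.47e-09). Nanos1, an RNA-binding repressor, averaged 26.2 ± 1.6 CPM in SCRP, against 9.18 ± 1.52 CPM in SCR (1.52 ± 0.09), and Adap2, an Arf GTPase activator, averaged 54.3 ± 2.8 CPM in SCRP, against 19.7 ± 1.22 CPM in SCR (1.46 ± 0.07). Syn1, a synapsin of neurons, rose by 2.35 ± 0.11, but its locus overlaps Timp1 and Araf.

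Intron reads, a readout of the same libraries that includes unspliced RNA, were tested on their own. Of 12665 genes tested 786 rose (6.21%) and 994 fell (7.85%), so 14.1% passed. For Ctsk the intron fold change was -3.13 ± 0.13 beside -3.37 ± 0.10 in exons, and for Nfatc1 it was -1.65 ± 0.11 beside -1.46 ± 0.06. For Trem1 it was 3.35 ± 0.58 beside 2.79 ± 0.14, and for Ahr 1.55 ± 0.30 beside 1.33 ± 0.11. All 4 passed in both readouts, with intron adjusted p from 5.28e-15 to 6.44e-04. Tfrc fell by more in introns, -2.03 ± 0.11 beside -1.35 ± 0.06, and Itgb3 by less, -1.52 ± 0.35 beside -2.57 ± 0.14. Sik3 did not pass in introns (-0.09 ± 0.12, adjusted p = 0.713), nor did Phgdh (1.21 ± 0.64, adjusted p = 0.238), Fads2 (1.79 ± 0.73, adjusted p = 0.106) or Nes (0.61 ± 0.78, adjusted p = 0.699). Intron reads of Nes were few, at 3.54 intron CPM on average in SCRP. The difference between the readouts was not tested.

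The Sik3 deletion, in separate libraries without pterosin B, gave a list of 2275 genes in the authors' deposited table, which holds only genes with an authors' false discovery rate of at most 0.05 and a fold of at least 2, 1053 higher and 1222 lower in KO. Of the 637 genes that fell at least 2-fold in SCRP, 372 (58.4%) were listed as lower in KO and 40 (6.28%) as higher, beside 7.08% and 6.75% of all tested genes. Those 372 are 30.4% of the genes listed lower in KO. Of the 182 genes that rose at least 2-fold in SCRP, 86 (47.3%) were listed as higher in KO and 7 (3.85%) as lower, and the 86 are 8.17% of the genes listed higher in KO. The authors' deposited table gives folds of KO over WT, written as negative for a fall, of -4.28 for Ctsk, -4.07 for Acp5, -3.36 for Nfatc1 and -7.79 for Calcr. It gives 7.86 for C1qa, 7.71 for Trem1, 4.95 for Mertk and 5.51 for Fads2. For Tnfrsf11a, the RANK gene, it gives -2.65, where the log2 fold change of SCRP over SCR was only -0.13. Other genes named above went opposite ways. Phgdh and Hspa1b, higher in SCRP, have folds of -3.56 and -10.3 in the authors' deposited table. Mmp8, F13a1, Tlr7, Rtp4 and Isg15, lower in SCRP, have folds of 2.44, 17.7, 3.59, 2.8 and 2.14 there. Hspa1b lies in the H2 region of chromosome 17. Folds listed for that region go both ways, such as 22.2 for H2-T22 and -21.5 for H2-Q6. Whether KO and WT differ in that region apart from Sik3 was not tested. RANKL was given for 2 days in KO and WT and for 3 days in SCRP and SCR, so times differ.

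Markers of other cells were low in these cultures. Lymphoid markers summed to 23.2 to 27.8 CPM over 15 genes in SCRP and 27.8 to 33.0 CPM in SCR, with Cd3e and Pax5 at 0 in all 6 libraries. Neutrophil granule genes other than Mmp8 and Mmp9 summed to 17.6 to 21.6 CPM over 16 genes in SCRP and 30.5 to 32.0 CPM in SCR, with Ly6g at 0. With Mmp8 and Mmp9, the sums of the 18 genes were 516 to 711 CPM in SCRP and 1689 to 1866 CPM in SCR, and of the 15 tested 6 fell and 0 rose. Dendritic cell genes summed to 7.80 to 11.4 CPM over 14 genes in SCRP and 12.9 to 15.5 CPM in SCR, and stromal and osteoblast genes to 12.6 to 14.6 CPM over 16 genes in SCRP and 14.6 to 16.2 CPM in SCR. Mast cell genes summed to at most 1.98 CPM over 9 genes in any of these libraries. Erythroid and megakaryocyte genes summed to 0.946, 2.38 and 30.6 CPM over 10 genes in SCRP, the last in replicate 3, and to 1.01 to 1.28 CPM in SCR. The part of these cells in the changes of the MHC class II, interferon and neutrophil genes was not tested.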

How the data were processed

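RNA sequencing of 9 libraries (SCRP, SCR and SC, 3 each) was analysed from a deposited table, and a second deposited table gave the knockout comparison. Per the labels' protocols, ribosomal RNA was removed from 500 ng of total RNA before strand-specific library preparation. Genome build GRCm38 (mm10) is named per the submitters' processing notes, and the aligner and counting program are not given there. The series text speaks of embryonic livers, but every sample is labelled as bone marrow monocytes, which was followed. The deposited counts are whole exon reads, unique exon reads and intron reads per gene, per the file headers. From 75.3% to 79.0% of exon counts between 1 and 39 were even, as would follow from counting each mate of a pair. The deposited RPKM values are scaled for exon length and library total by the authors, per the file headers. The p-values deposited by the authors are false discovery rates of a test the authors call EDGE, and the deposited score beside them is a signed fold, per the file headers. All 41819 gene positions equal those of GENCODE mouse release 21 in start and end. A further 184 columns of per-sample values were not used here.

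Counts were filtered with filterByExpr, scaled with TMM and tested by quasi-likelihood in edgeR 4.0.16 under R 4.3.3, in 1 fit of 3 groups (common dispersion 0.0072, 6 residual degrees of freedom), with Benjamini-Hochberg adjustment. The script was tested on simulated data. Alternatives were DESeq2 1.42.0, RLE factors, library totals, no filter, unique reads, halved counts, fewer libraries and a replicate block. Libraries of a group differed beyond sampling noise (mean chi-square per gene from 6.84 to 15.3). No pair was taken as a repeat deposit of 1 library, and each library was counted as 1 sample, though libraries of 1 culture would also differ in this way. Tables and plots were made with Python 3.11.15, pandas 2.3.3, numpy 2.4.6 and matplotlib 3.10.9.

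The lists (57 with 1137 entries) and the members were chosen with earlier results of these data known. Named genes are the 12 largest falls and rises by fold among passing genes with at least 8 CPM and 50% unique reads, the 8 largest by CPM difference, up to 3 per direction and list at 2 CPM or more, and a set of key genes. Fos and the haemoglobin genes were named after their values were seen.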

Additional observations from a re-analysis of the deposited data

How the results depend on the processing

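No alternative run moved the number of passing genes, in all, in either direction, at 2-fold or in intron reads, by more than 1.5 times. Exon passes ranged from 4396 to 5805 and intron passes from 1299 to 1893, with the single-library omissions giving the lowest. The labels only number the libraries, so the numbers are not taken as pairs. Libraries with the same number showed correlations of their deviations of 0.0494, 0.0954 and 0.0463, and those with different numbers -0.0575 to 0.00704. Each library thus correlated best with its own number, and whether equal numbers share a batch was not tested. With the replicate block 5394 genes passed (2563 up, 2831 down), and 5805 with the replicate block and SCR and SCRP libraries only. Of 1014 listed and named genes none reversed a call, and 48 to 64 lost theirs when a library was left out. Of 1710 recomputed list counts 106 moved by over 1.5 times, 13 of them for counts of 5 or more, which are given with their lists, except the 5 falls of dendritic cell genes, which came to 3 with counts halved and to 2 without SCR replicate 3 or SCRP replicate 2. The other 93 concern counts under 5, which are the least firm, as with the falls of mitochondrial genome genes. Of genes under 1 CPM 9.64% passed, against 55.2% at 100 CPM or more, and the part of depth in this was not tested. With 3 libraries a group and no stated animals, small folds that pass describe these cultures.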

Other observations

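Rpph1, the RNA of ribonuclease P, had 1.57, 1.36 and 0.584 CPM in SCRP, against 34.4, 22.5 and 28.5 CPM in SCR, with 79.8% unique reads and a locus that overlaps Ccnb1ip1. It was the 1 that passed of 6 tested members in a list of noncoding RNAs, not all of them small (Snhg1 and Gas5). Another 9 of that list were not tested. The SC libraries had 17.4, 18.2 and 13.6 CPM of Rpph1.

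Cep85, a centrosome gene, took an unusual number of intron reads, with 237995, 217525 and 239739 in SCRP, against 109492, 73228 and 101360 in SCR, and 47527, 47341 and 45763 in SC. They made up 5.34% to 5.96% of all intron reads in SCRP and 2.27% to 2.56% in SCR, and its locus overlaps Gm27619. The intron fold change was 1.26 (adjusted p = 4.25e-14), beside 1.05 in exon reads. Both genes were singled out after their values were seen.

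Elane, the neutrophil elastase gene, had 2 reads over the 3 SCRP libraries, all in replicate 3, and 0.364, 1.43 and 0.909 CPM in the SCR libraries.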
